A study of Mus musculus with 60 samples.

Results

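Primary mouse hepatocytes without a working Met gene were compared after 24 h and after 12 h of treatment with HGF. The comparison used 12 of the 60 two-colour oligonucleotide arrays of the series, which are 3 replicates at each time, each read on a Cy5 and a Cy3 array, and they were chosen by genotype and time in the sample titles. The knock-out (KO) cells came from adult male mice of 9 to 10 weeks labelled Alb-Cre +/-; Met Fl/Fl, strain 129SV/C57BL6, in which a Cre recombinase driven by the albumin promoter removes the floxed part of Met in hepatocytes. The control (WT) cells, labelled Cre control and strain C57BL, were treated for the same times, and their step is set beside that of the KO cells. Their arrays also entered the choice of probes and the spread and weights of the fit that tested the KO cells. Hepatocytes were plated in 10% serum, moved to serum-free medium, and given HGF at 50 ng/ml on the next day. The treatment field of the labels gives the dose as 50 nM, and for the 12 h samples a time of 0.5 h; the titles were followed. Cultures of a group came from 3 individual mice, and the labels do not say whether the times share mice. Every array compared its sample with the same kind of reference, RNA pooled from WT hepatocytes, so a value is a log2 ratio to that pool. The labels do not settle which of sample and pool is the numerator, and sample over pool was assumed for both dye orientations. Over all probes the orientations of a replicate correlated at r = -0.375 to -0.168 in 5 of the 6 KO replicates and at 0.162 in 24 h replicate 3, so the assumption, on which every direction below rests, is not settled by the values.

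HGF is a growth and motility factor that other liver cells release, and MET, its receptor tyrosine kinase on hepatocytes, passes the signal to the ERK and PI3K pathways. Hepatocytes make most plasma proteins, bile acids and drug-metabolising enzymes, and once isolated and plated they lose part of that program while their cytoskeleton is rebuilt. MET is the only known signalling receptor for HGF, so this comparison addresses how RNA levels move between 12 and 24 h in cultures that should lack it. The groups hold no cultures left without HGF at 12 or 24 h, so time with HGF and time in culture cannot be told apart. Bulk RNA was measured, and fewer cells of a type cannot be told apart from less of an RNA per cell.

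Of 21997 probes, 17618 had values in both orientations in at least 2 of 3 replicates of each of the 4 groups and were tested; they cover 11883 genes. Array numbers fall into runs, here called array sets. All 12 h replicates and 24 h replicates 1 and 2 of the KO cells lay in array set C, and 24 h replicate 3 in array set B. KO 24 h replicate 2 was the noisiest, with an SD over probes of 0.738 against 0.300 to 0.478 in the other 5 KO replicates. The place of the single Met probe relative to the floxed part is unknown here, so it checks nothing. It read 0.42 ± 0.02 (SD, n = 2) at 12 h and 0.21 ± 0.22 (SD, n = 3) at 24 h in KO cells. In WT cells it read 0.45 ± 0.11 (SD, n = 3) at 12 h.

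No probe passed an adjusted p of 0.05 for KO 24 h against KO 12 h with limma (0 of 17618 tested, a background of 0%), and the lowest adjusted p was 0.0685. The 12 h and 24 h replicates did not overlap for 2641 probes (15%). At an unadjusted p under 0.05, 1566 probes (8.89%) differed, 342 higher and 1224 lower at 24 h. Of these 1566, 202 were among the 228 probes of the single gene Gapdh. Counted by gene, 250 were higher (2.1%) and 729 lower (6.13%), and these shares are the background for every list below. The count of calls depended on which KO replicate was left out: it was 9, 73 and 3 without 12 h replicates 1, 2 and 3, and 133, 1 and 124 without 24 h replicates 1, 2 and 3. Of the 979 genes at an unadjusted p under 0.05, 113 kept that and their direction in all 6 fits that left out 1 KO replicate, 27 higher and 86 lower. In a fit of the KO 12 h and KO 24 h groups alone, the lowest adjusted p was 0.313 (limma). There, 414 probes were higher and 686 lower at an unadjusted p under 0.05. The differences below come from the fit of all 10 groups. They are log2 values with limma's standard error (SE) and adjusted p, none of which passed. A gene is counted as higher or lower in a list at an unadjusted p under 0.05. Lists share members, among them Ttr, Gnmt, Cyp51, Lcn2, Hamp, Tfrc and Gapdh, so their counts are not independent of each other. Nothing in the labels says more of the cultures than that they came from separate mice, so the tests measure the spread between these samples.

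Among secreted hepatocyte proteins, lower values at 24 h prevailed. In the list of albumin, apolipoproteins and other secreted proteins, 8 of 32 measured genes (25%) were lower at an unadjusted p under 0.05 and none higher, with a list median of -0.18 against -0.02 over all genes; over the fits leaving out 1 KO replicate the lower count was 3 (without 24 h replicate 1) to 11 (without 24 h replicate 3 or 12 h replicate 2). Serpina1b, a copy of the gene for alpha-1-antitrypsin, the main serine protease inhibitor of plasma, had the lowest p of this list. Serpina1b read 0.00, -0.10 and 0.00 in the 3 replicates at 12 h and -1.15, -0.96 and -0.62 at 24 h. All 24 h replicates lay below all 12 h replicates, and the difference was -0.88 ± 0.17 (SE; adjusted p = 0.0878, limma). It was larger on the Cy3 arrays (-1.38) than on the Cy5 arrays (-0.37). Its copies Serpina1c and Serpina1d, outside the list, were chosen after their values were seen. Serpina1c differed by -0.81 ± 0.18 (SE), with 24 h replicates between -0.90 and -0.83. Serpina1d differed by -1.17 ± 0.24 (SE) and Serpina1a by -0.61 ± 0.21 (SE). On the Cy5 and Cy3 arrays, Serpina1c gave -0.45 and -1.18, Serpina1d -0.36 and -1.97, and Serpina1a -0.61 and -0.60. These genes are near-identical copies, and a probe of 1 of them may also bind RNA of the others, so they are not independent observations.

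The stretch before the annotated start of Serpina1b is shown because all 4 copies share a run near its end, with the letters GTTAAT, the core of sites for the hepatocyte factor HNF1, in capitals. It lies at chr12:103738190-103738439 on the minus strand (RefSeq, GRCm38.p6; 250 bases, 5′ to 3′).
Serpina1b: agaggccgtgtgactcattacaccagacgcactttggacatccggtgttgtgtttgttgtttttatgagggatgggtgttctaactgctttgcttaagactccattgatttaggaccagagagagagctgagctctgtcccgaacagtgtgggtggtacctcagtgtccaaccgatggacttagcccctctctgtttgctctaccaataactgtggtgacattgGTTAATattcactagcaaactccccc
The longest run that the 4 copies have in common is 55 bases.
Shared run: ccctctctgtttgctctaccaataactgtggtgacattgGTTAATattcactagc
Searched on both strands (GTTAAT or ATTAAC) in the 250 bases before the start, these letters were found in 10 of the 33 list genes with a promoter in the RefSeq table (30.3%) and in 7.49% of the 27025 genes of that table. A match describes the letters only.

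Transthyretin (Ttr), the carrier of thyroid hormone and retinol-binding protein, read -0.33, -0.17 and -0.11 at 12 h and -1.73, -1.81 and -0.65 at 24 h. The 2 times did not overlap, but replicate 3 stood well above the other 24 h replicates; the difference was -1.19 ± 0.26 (SE, adjusted p = 0.106). Apoe, the ligand for remnant uptake, differed by -0.49 ± 0.14 (SE, adjusted p = 0.218). Murinoglobulin (Mug1), a broad protease inhibitor, differed by -0.77 ± 0.24 (SE, adjusted p = 0.248). Albumin itself was close to level, at -0.04 ± 0.08 (SD, n = 3) and -0.12 ± 0.14 (SD, n = 3), and its difference of -0.08 ± 0.11 (SE, adjusted p = 0.999) is within the replicate spread.

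Complement, coagulation and acute phase genes also had lower members and none higher. In the complement and coagulation list, 6 of 33 genes (18.2%) were lower and none higher, but 15 members lay above 0 and 18 below. Without 24 h replicate 1 the lower count was 2 and the list median 0.12; without replicate 3 they were 6 and -0.21. Vitronectin (Vtn), an adhesion protein of plasma, read -1.01, -1.34 and -1.14 at 12 h and -2.36, -2.10 and -1.30 at 24 h, a difference of -0.76 ± 0.20 (SE, adjusted p = 0.163). The groups overlapped through 24 h replicate 3. C8g, a chain of the membrane attack complex, differed by -0.70 ± 0.23 (SE) with no overlap. In the acute phase list, 5 of 27 genes (18.5%) were lower and none higher, among them the plasma glycoprotein Orm1 (-0.62 ± 0.20, SE, adjusted p = 0.263). The lower count was 1 without 24 h replicate 1 and 6 without replicate 3. Hepcidin (Hamp), the hormone that limits iron export, read 0.28, 0.48 and 0.31 at 12 h and -1.35, -1.03 and 0.06 at 24 h. Its difference of -1.13 ± 0.47 (SE, adjusted p = 0.423) did not reach an unadjusted p of 0.05 without 24 h replicate 2. Metallothionein Mt1, which binds zinc, read -0.31, 0.10 and -0.06 at 12 h and -1.79, -1.71 and -0.58 at 24 h. The times did not overlap, and the difference was -1.27 ± 0.29 (SE, adjusted p = 0.118).

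**Figure D1:**
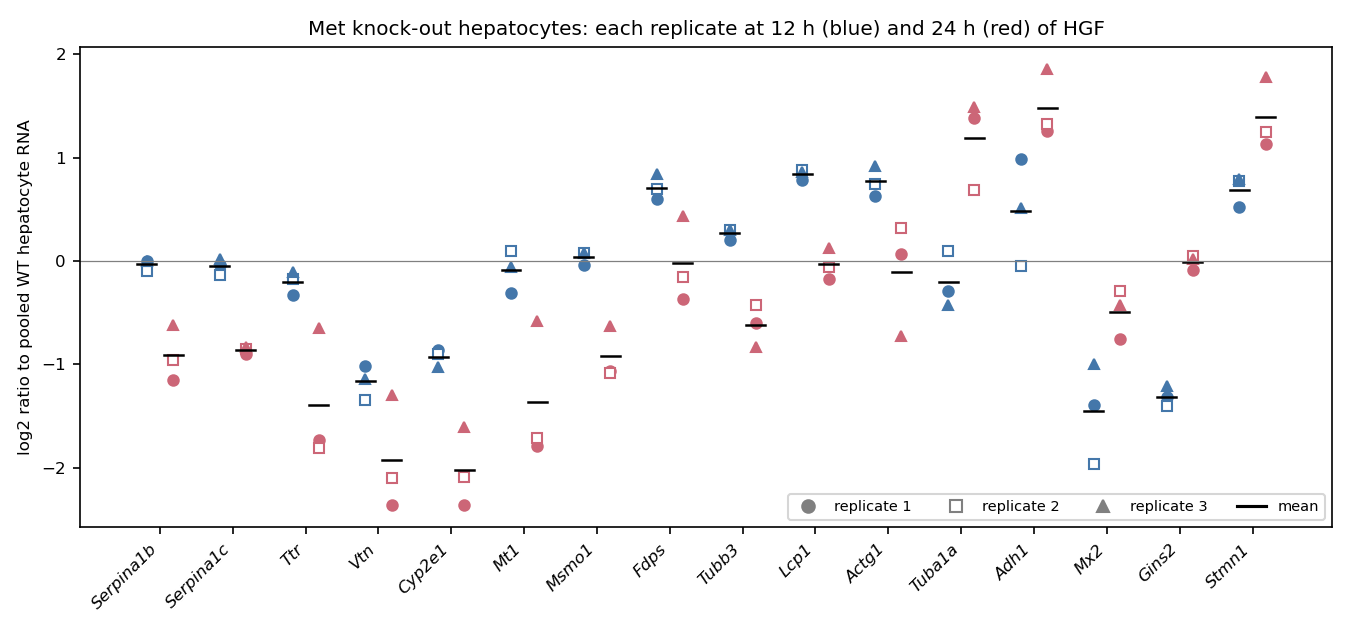
Log2 ratio to pooled WT hepatocyte RNA (vertical axis) of 16 genes in each KO replicate at 12 h (blue) and 24 h (red), with 1 marker shape per replicate number and a bar at each mean. Serpina1b, Serpina1c, Ttr, Mt1, Msmo1, Tubb3 and Lcp1 show 24 h replicates below all 12 h replicates, and Tuba1a, Adh1, Mx2, Gins2 and Stmn1 show them above.

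Among the enzymes of drug and bile acid metabolism, Cyp2e1, which oxidises ethanol and small solvents, had the lowest difference of the cytochrome P450 list. It read -0.86, -0.90 and -1.02 at 12 h and -2.36, -2.09 and -1.60 at 24 h, a difference of -1.09 ± 0.26 (SE, adjusted p = 0.142). The times did not overlap, and its mean in untreated KO cells was 0.19 ± 0.42 (SD, n = 3). Cyp2f2, a lung and liver enzyme, differed by -0.83 ± 0.28 (SE), with 24 h replicates at -2.32, -2.09 and -0.85. Here replicate 3 stayed at the 12 h level while replicates 1 and 2 did not, and the difference was -0.55 without replicate 1 and -1.28 without replicate 3. Of 35 P450 genes measured, 30 had a difference below 0, but at an unadjusted p under 0.05 only 3 were lower and 1 higher. The lower count was 1 without 24 h replicate 1, 5 without replicate 2 and 12 without replicate 3.

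In the bile acid list, 4 of 22 genes were lower and 2 higher; without 24 h replicate 1, 1 was lower and none higher. Hsd3b7, which modifies the sterol ring in bile acid synthesis, read -0.35, -0.17 and -0.38 at 12 h and -1.01, -0.77 and -1.19 at 24 h, and all 3 replicates at 24 h were below those at 12 h (-0.69 ± 0.20, SE, adjusted p = 0.211). Cyp8b1, the sterol 12-alpha-hydroxylase that sets the share of cholic acid, differed by 0.44 ± 0.18 (SE, adjusted p = 0.428), or 0.26 without 12 h replicate 2. Cyp7a1, the rate-limiting enzyme of the pathway, differed by 0.12 ± 0.30 (SE, adjusted p = 0.999), and its sign depended on the processing. Amino acid and urea genes had 4 of 41 lower, including Gnmt, which uses up methyl groups in glycine (-0.80 ± 0.29, SE; -0.49 without 24 h replicate 1), and the urea cycle enzyme Ass1 (-0.39 ± 0.17, SE). Conjugating enzymes had 2 of 25 lower and none higher.

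Cholesterol synthesis was the list with the largest share of lower genes beside the hepatocyte markers: 6 of 20 measured genes (30%) were lower at an unadjusted p under 0.05 and none higher, and 16 had a difference below 0. The count was again 6 without 24 h replicate 2 and 6 without replicate 3, and it was 3 without 24 h replicate 1. Msmo1, the sterol methyl oxidase, read -0.04, 0.08 and 0.08 at 12 h and -1.06, -1.08 and -0.63 at 24 h. The difference of -0.96 ± 0.19 (SE, adjusted p = 0.0885) was similar on the Cy5 (-1.06) and Cy3 arrays (-0.86). Farnesyl diphosphate synthase (Fdps), which makes the isoprenoid precursor of squalene, read 0.60, 0.70 and 0.84 at 12 h and -0.37, -0.15 and 0.44 at 24 h (-0.74 ± 0.21, SE, adjusted p = 0.2). The lanosterol demethylase Cyp51 differed by -0.59 ± 0.21 (SE), with values in 2 replicates at 12 h, and by -0.36 without 24 h replicate 1. Mvd, the mevalonate decarboxylase, also counted among the 6, but its 24 h replicates were -0.17, -3.32 and -0.44, and without replicate 2 its difference was -0.42.

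The stretch before Msmo1 is shown because it led the list and holds 3 CCAAT boxes, the letters bound by NF-Y, a partner of the sterol factor SREBP on promoters of this pathway. It lies at chr8:64733579-64733828 on the minus strand (RefSeq, GRCm38.p6; 250 bases, 5′ to 3′), with CCAAT in capitals.
Msmo1: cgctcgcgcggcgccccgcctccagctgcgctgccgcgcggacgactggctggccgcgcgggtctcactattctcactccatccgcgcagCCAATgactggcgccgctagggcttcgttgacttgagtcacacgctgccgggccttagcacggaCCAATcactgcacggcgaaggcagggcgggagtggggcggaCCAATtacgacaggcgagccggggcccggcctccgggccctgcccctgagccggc
CCAAT or, on the other strand, ATTGG was found in 19 of the 22 list genes in the RefSeq table (86.4%), against 37.5% of all genes there. The binding of no factor was measured.

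Fatty acid and sugar enzymes that supply the same carbon also had lower members. In fatty acid and triglyceride synthesis 4 of 36 genes were lower and none higher. ATP citrate lyase (Acly), which makes cytosolic acetyl-CoA, read 0.15, 0.46 and 0.43 at 12 h and -0.26, -0.10 and -0.39 at 24 h (-0.60 ± 0.18, SE, adjusted p = 0.233). Gpam, which starts glycerolipid synthesis, differed by -0.42 ± 0.16 (SE). The desaturase Fads1 had its difference of -1.69 ± 0.55 (SE) mainly from replicate 2, and the value without it was -0.38. In the list of glycolysis and glycogen genes 5 of 32 were lower and none higher, and the lower count was 1 without 24 h replicate 3. Liver pyruvate kinase (Pklr) read 1.39, 1.75 and 1.57 at 12 h and 0.86, -0.10 and 0.47 at 24 h (-1.16 ± 0.33, SE, adjusted p = 0.195). Fructokinase (Khk) differed by -0.61 ± 0.23 (SE). Fatty acid oxidation had 3 of 34 genes higher and 2 lower, with a list median of 0.15. The counts turned with the replicate left out, to 4 higher and none lower without 24 h replicate 2 and to none higher and 4 lower without replicate 3, where the median was 0.03. Eci2, an isomerase of that pathway, differed by 0.50 ± 0.16 (SE, adjusted p = 0.269), and the mitochondrial carnitine carrier Slc25a20 by 0.40 ± 0.17 (SE); neither reached an unadjusted p of 0.05 without 24 h replicate 3.

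**Figure D2:**
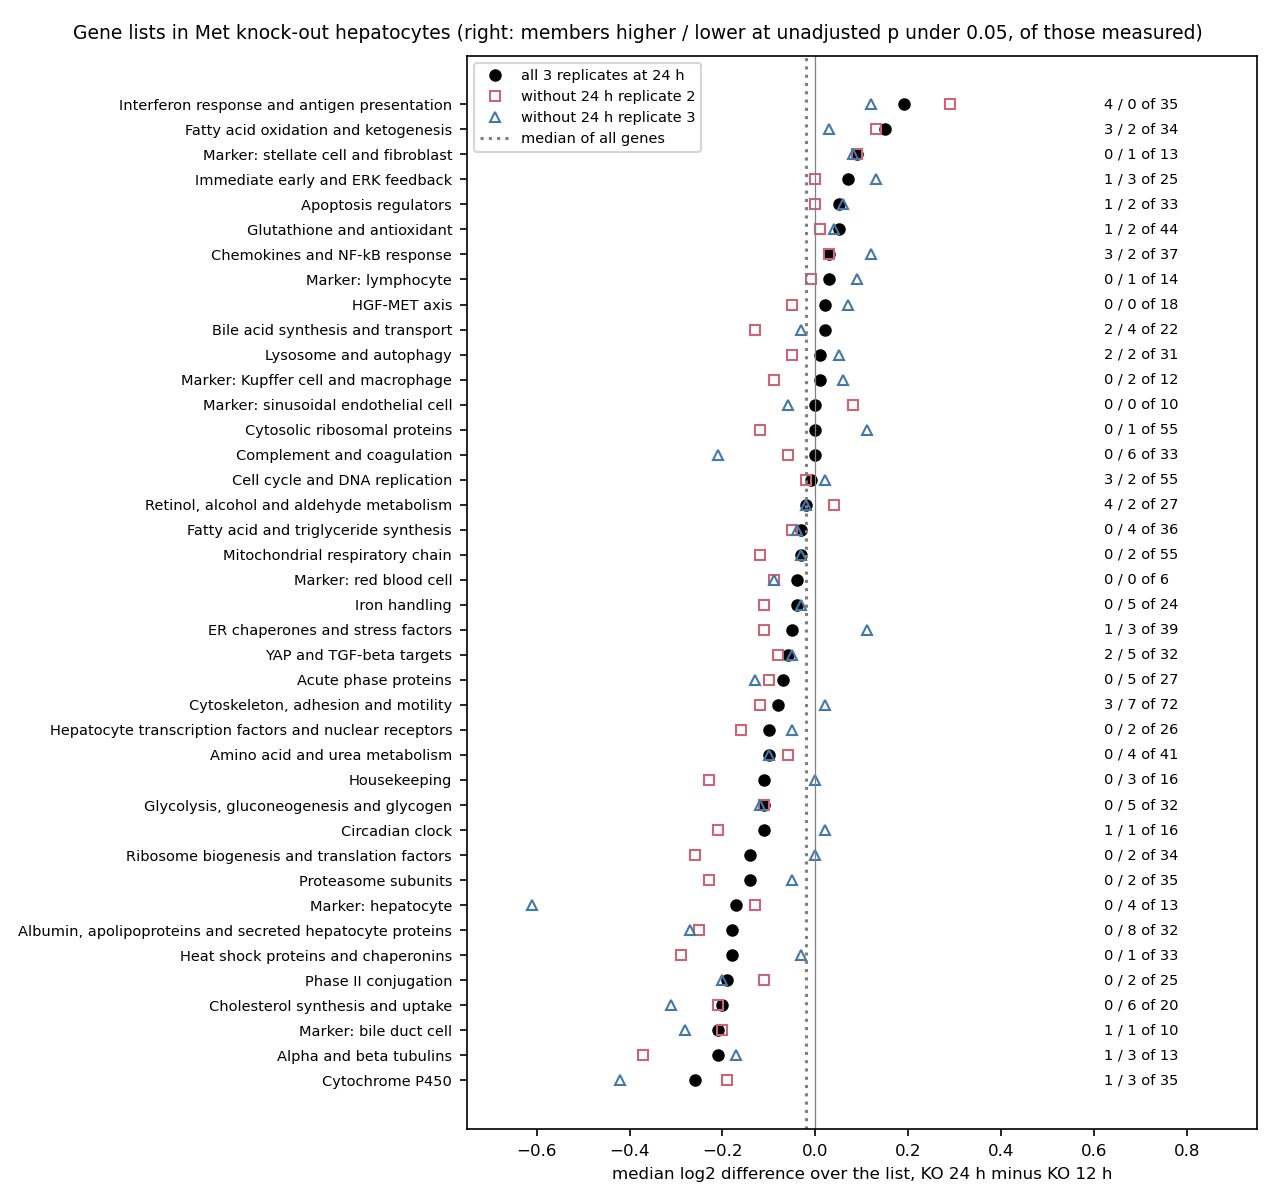
Median log2 difference, KO 24 h minus KO 12 h (horizontal axis), of each of the 40 gene lists with all replicates (black), without 24 h replicate 2 (red squares) and without 24 h replicate 3 (blue triangles). Numbers at the right give members higher and lower at an unadjusted p under 0.05; the interferon list has the highest median (0.19) and the P450 list the lowest (-0.26).

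The cytoskeleton lists held differences of both signs. Tubulins are the subunits of microtubules, and of 13 alpha and beta tubulin genes 3 were lower and 1 higher; without 24 h replicate 2, 5 were lower. Tubb3, a beta tubulin otherwise typical of neurons, had the lowest p of all probes. It read 0.20, 0.30 and 0.30 at 12 h and -0.60, -0.42 and -0.83 at 24 h, a difference of -0.89 ± 0.16 (SE, adjusted p = 0.0685). It was alike on Cy5 (-0.83) and Cy3 arrays (-0.94). Tuba1a, an alpha tubulin of growing and migrating cells, went the other way, from -0.29, 0.10 and -0.42 to 1.38, 0.69 and 1.49 (1.39 ± 0.31, SE, adjusted p = 0.11). The beta tubulin Tubb6 differed by -1.72 ± 0.36 (SE), with -3.55 in 24 h replicate 2; without that replicate the value was -0.86. Tuba4a differed by -0.47 ± 0.19 (SE), but by -0.24 without replicate 3.

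In the list of cytoskeleton, adhesion and motility genes, 7 of 72 were lower and 3 higher, and the lower count was 11 without 24 h replicate 2. The actin bundler L-plastin (Lcp1), usually a leukocyte protein, read 0.78, 0.88 and 0.86 at 12 h and -0.17, -0.06 and 0.13 at 24 h (-0.87 ± 0.19, SE, adjusted p = 0.106). Its groups stood apart by more than the spread within either. Cytoplasmic gamma-actin (Actg1) was measured by 2 probes, which gave -0.88 ± 0.24 and -0.95 ± 0.27 (SE). Replicate 3 was lowest on both, at -0.72 and -0.67, and the first value was -0.58 without it. Calponin 2 (Cnn2), an actin-binding protein, differed by -0.82 ± 0.23 (SE), and keratin 8 (Krt8), the type II keratin of hepatocytes, by -0.66 ± 0.20 (SE).

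In the list of retinol, alcohol and aldehyde enzymes 4 of 27 genes were higher (14.8%) and 2 lower; the higher count was 2 without 24 h replicate 3 and 6 without 12 h replicate 1. Adh1, the main liver alcohol dehydrogenase, read 0.99, -0.05 and 0.51 at 12 h and 1.26, 1.33 and 1.86 at 24 h, with no overlap (1.00 ± 0.29, SE, adjusted p = 0.214). Retinaldehyde dehydrogenase Aldh1a1 was already far above the WT pool at 12 h, at 2.63, 2.54 and 2.66, and stood at 3.22, 3.38 and 3.49 at 24 h (0.75 ± 0.30, SE, adjusted p = 0.38). Its close relative Aldh1a7 showed 0.59 ± 0.21 (SE, adjusted p = 0.332), and probes of such similar genes may share signal. The retinol dehydrogenase Rdh5 differed by -0.47 ± 0.17 (SE). The glutathione transferase Gsta3 stayed within its spread, at 0.65 ± 0.27 (SD, n = 3) and 0.85 ± 0.04 (SD, n = 3; difference 0.19 ± 0.14, SE, adjusted p = 0.866).

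Interferon response genes had the highest list median, 0.19, with 4 of 35 higher (11.4%) and none lower. Without 24 h replicates 1, 2 and 3 in turn, 7, 3 and 2 were higher, and 2 were lower without replicate 3. All 4 named here read below the WT pool at 12 h. The antiviral GTPase Mx2 read -1.39, -1.96 and -1.0 at 12 h and -0.75, -0.29 and -0.42 at 24 h (0.96 ± 0.24, SE, adjusted p = 0.142). The groups did not overlap, and the 2 dye orientations gave 0.93 and 1.00. The oligoadenylate synthetase Oas1a differed by 1.14 ± 0.46 (SE, adjusted p = 0.406) with overlapping groups, since replicate 1 at 24 h (-1.94) lay below replicate 3 at 12 h (-1.90). The GTPase Irgm1 differed by 0.52 ± 0.21 (SE, adjusted p = 0.385), with values in 2 replicates at 12 h, and by 0.31 without 24 h replicate 3. The signal transducer Stat2 differed by 0.53 ± 0.20 (SE, adjusted p = 0.351), or 0.35 without 24 h replicate 2.

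Promoters of 2 of these genes are shown because both carry, close to the start, the core of the interferon-stimulated response element: TTTC, any 2 bases and TTTC again, or on the other strand GAAA, any 2 bases and GAAA. The capitals mark its overlapping matches. The Oas1a stretch lies at chr5:120907526-120907775 and the Irgm1 stretch at chr11:48871421-48871670, both on the minus strand (RefSeq, GRCm38.p6; 250 bases, 5′ to 3′).
Oas1a: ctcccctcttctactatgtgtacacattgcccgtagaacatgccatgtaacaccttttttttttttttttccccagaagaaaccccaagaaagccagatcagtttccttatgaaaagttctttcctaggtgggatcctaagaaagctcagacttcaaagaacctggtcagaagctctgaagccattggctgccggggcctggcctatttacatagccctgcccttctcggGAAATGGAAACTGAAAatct
Irgm1: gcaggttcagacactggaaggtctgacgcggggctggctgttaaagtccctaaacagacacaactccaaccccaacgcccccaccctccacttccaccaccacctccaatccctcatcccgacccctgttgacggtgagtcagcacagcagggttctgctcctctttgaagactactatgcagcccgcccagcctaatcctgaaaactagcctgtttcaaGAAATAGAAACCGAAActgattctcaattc
The element was found in 14 of the 37 list genes in the RefSeq table (37.8%) and in 3.46% of all genes there, and a match does not show that a factor binds.

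Cell cycle genes were mostly level: 3 of 55 were higher and 2 lower, with a list median of -0.01. The DNA replication factor Gins2, chosen after its values were seen, had the second lowest p of the genes after Tubb3. It read -1.31, -1.40 and -1.21 at 12 h and -0.09, 0.05 and 0.02 at 24 h, a clear separation (1.30 ± 0.23, SE, adjusted p = 0.0685). The Cy3 arrays gave 1.91 and the Cy5 arrays 0.69. Its mean in untreated KO cells was -0.40. Stathmin (Stmn1), which destabilises microtubules, read 0.52, 0.77 and 0.79 at 12 h and 1.13, 1.25 and 1.78 at 24 h (0.70 ± 0.21, SE, adjusted p = 0.233), and Ccng1, a p53 target, differed by 0.50 ± 0.18 (SE). The primase subunit Prim1 differed by -0.51 ± 0.20 (SE).

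The HGF and MET list had no member of 18 at an unadjusted p under 0.05 in either direction, and its differences ranged from -0.21 to 0.33. Met itself differed by -0.21 ± 0.20 (SE, adjusted p = 0.983). Hgf differed by 0.33 ± 0.47 (SE, adjusted p = 0.999), and its activating protease Hgfac by 0.30 ± 0.17 (SE, adjusted p = 0.704). Early response genes were near level, with Egr1 at 0.07 ± 0.31 (SE) and the EGF receptor ligand Hbegf at 0.09 ± 0.19 (SE). In that list 1 of 25 was higher and 3 lower, and without 24 h replicate 2 none was lower. Btg2, an antiproliferative gene, was the higher one, from -0.74, -0.78 and -0.70 to -0.32, -0.13 and -0.18 (0.53 ± 0.22, SE, adjusted p = 0.434). Epiregulin (Ereg), another EGF receptor ligand, differed by -2.04 ± 0.75 (SE, adjusted p = 0.345), with 24 h replicates at -0.82, -2.97 and -0.12 and a difference of -1.21 without replicate 2.

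Clock genes gave 1 higher and 1 lower of 16. Arntl (BMAL1), the positive arm of the clock, read -0.53, -0.78 and -0.31 at 12 h and -0.03, 0.35 and -0.01 at 24 h (0.64 ± 0.21, SE, adjusted p = 0.273). The output factor Tef differed by -0.78 ± 0.25 (SE, adjusted p = 0.253), and by -0.48 without 24 h replicate 2, the lowest at -0.94. The repressor Per2 differed by -0.60 ± 0.30 (SE, adjusted p = 0.587) and the nuclear receptor Nr1d1 by -0.45 ± 0.27 (SE, adjusted p = 0.74). Dbp, also an output factor, differed by -0.17 ± 0.23 (SE, adjusted p = 0.999).

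Iron and lysosome genes included some of the largest values. In the iron list 5 of 24 genes were lower and none higher, and 2 were lower without 24 h replicate 1. Lcn2 and Hamp count both here and in the acute phase list, and Tfrc both here and among housekeeping genes. The transferrin receptor Tfrc, which brings iron into the cell, differed by -1.06 ± 0.27 (SE) on 1 probe and by -0.56 ± 0.23 (SE) on the other, and the first value was -0.64 without 24 h replicate 2. Alas1, which starts heme synthesis, differed by -0.51 ± 0.17 (SE), or -0.33 without 24 h replicate 2. The lysosomal protease cathepsin D (Ctsd) read 0.24, -0.22 and 0.04 at 12 h and -3.65, -2.27 and -0.17 at 24 h. The difference of -2.05 ± 0.45 (SE, adjusted p = 0.116) came from replicates 1 and 2, since replicate 3 was within the 12 h range, and it was -1.24 without replicate 1. The autophagy gene Map1lc3b differed by 0.49 ± 0.16 (SE, adjusted p = 0.259). In the lysosome list as a whole 2 of 31 were higher and 2 lower.

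**Figure D3:**
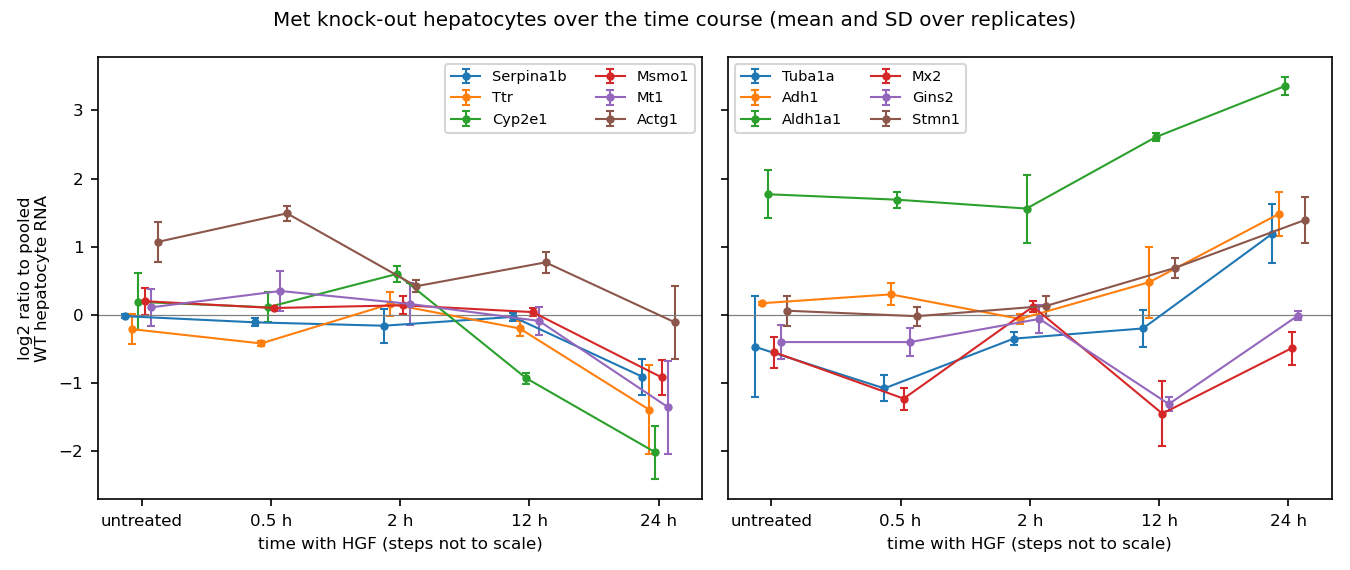
Log2 ratio to pooled WT hepatocyte RNA (vertical axis; mean and SD over replicates) of 12 genes in KO cells, untreated and at 0.5, 2, 12 and 24 h of HGF, with the times spaced evenly. Cyp2e1 was at -0.93 at 12 h and -2.02 at 24 h, Aldh1a1 at 2.61 and 3.36, and Serpina1b, Ttr, Msmo1 and Mt1 lay between -0.20 and 0.04 at 12 h.

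Gapdh, a glycolytic enzyme, is on the array as 228 tested probes, 1.29% of all, which serve as repeated measurements of a single RNA within each array. Their medians were 0.25, 0.12 and 0.31 in the 12 h replicates and -0.19, -0.23 and -0.59 in the 24 h replicates. All 3 medians at 24 h lay below those at 12 h, 227 of 228 probes had a difference below 0, and the median difference was -0.59. By single array, the Cy5 median of 24 h replicate 2 was 0.50, within the 0.46 to 0.60 of the 12 h Cy5 arrays. Its Cy3 median was -0.93, against -0.22 to 0.02 at 12 h. The Cy5 medians of 24 h replicates 1 and 3 were 0.24 and -0.53. The SD over the Gapdh probes was 0.138 to 0.186 in 5 of the KO replicates and 1.04 in 24 h replicate 2, where the Cy3 array alone had an SD of 2.04. Single large values in that replicate, such as -3.55 for Tubb6 and -3.32 for Mvd, lie inside the range of the Gapdh probes there, from -4.27 to 2.57. Of 7861 probes with values in all 30 replicates, 47 not of Gapdh correlated with the Gapdh medians at r over 0.9. Of these, 44 were lower at an unadjusted p under 0.05 (limma), but the KO 12 h and 24 h replicates are part of that r. Among named genes, r was 0.92 for Rdh5 and 0.868 for the first Actg1 probe, so they are not separate from the Gapdh profile.

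**Figure D4:**
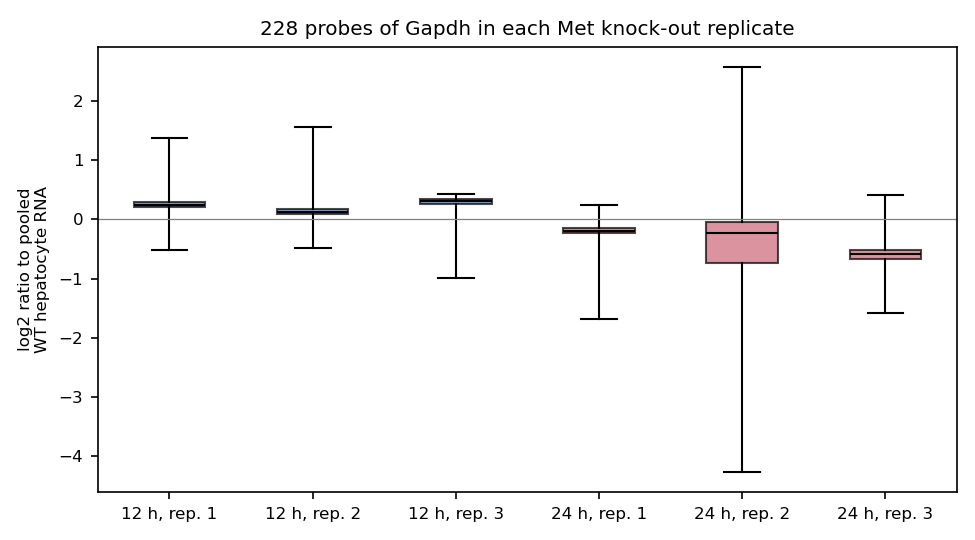
Log2 ratio (vertical axis) of the 228 Gapdh probes in each KO replicate, 12 h in blue and 24 h in red; boxes show the middle of the distribution with the median, and whiskers the lowest and highest probe. The spread in 24 h replicate 2 (SD 1.04) is several times that of any other replicate.

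Several of the remaining lists were near the background or depended on 1 replicate. Heat shock proteins had 1 of 33 lower, and 5 without 24 h replicate 2 but none without replicate 3; the mitochondrial chaperonin Hspd1 differed by -0.44 ± 0.22 (SE) and by -0.22 without replicate 3. ER chaperones had 1 of 39 higher and 3 lower, and chemokine and NF-kB genes 3 of 37 higher and 2 lower. YAP and TGF-beta targets had 2 of 32 higher and 5 lower (15.6%), with 3 to 5 lower when 1 KO replicate was left out. Among the YAP and TGF-beta targets, the collagen Col3a1 differed by -0.61 ± 0.17 (SE, adjusted p = 0.207). The NF-kB subunit Relb differed by 0.53 ± 0.19 (SE) and the cytokine Il18 by 0.56 ± 0.19 (SE), or 0.30 without 24 h replicate 3. Antioxidant genes had 1 of 44 higher and 2 lower, apoptosis regulators 1 of 33 and 2, and hepatocyte transcription factors none of 26 higher and 2 lower. Ribosomal proteins (1 of 55 lower), ribosome biogenesis (2 of 34), the proteasome (2 of 35) and the respiratory chain (2 of 55) had no member higher. Housekeeping genes had 3 of 16 lower (18.8%), with 1 to 5 lower when 1 KO replicate was left out.

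Markers of the cell types that a liver preparation can hold were compared as differences, since a ratio to hepatocyte RNA gives no level. Of 13 hepatocyte markers 4 were lower (30.8%) and none higher, with a median over the list of -0.33, -0.41 and -0.39 in the 12 h replicates and -0.86, -0.81 and -0.16 in the 24 h replicates. Replicates 1 and 2 were lower than at 12 h and replicate 3 was not, and the list's median difference was -0.61 without replicate 3 and -0.13 without replicate 2. Without replicate 1 it was 0.00, with 1 marker lower. Macrophage markers had 2 of 12 lower, with Marco, a scavenger receptor, at -0.57 ± 0.19 (SE, adjusted p = 0.295), or -0.35 without 12 h replicate 2. Endothelial markers had none of 10 in either direction, stellate cell markers 1 of 13 lower, bile duct markers 1 of 10 higher and 1 lower, lymphocyte markers 1 of 14 lower and red cell markers none of 6. Their part in the results above was not tested.

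The same step in WT cells had 47 called probes (0.267%), 17 higher and 30 lower, and 42 of them had the same sign in KO cells. The share of same signs over all probes was not counted. At an unadjusted p under 0.05 (limma), 23 of the 47 had the same sign in KO cells, where 8.89% of all probes differed. For the difference of the steps, 26 of the 47 were under 0.05, against 958 of 17618 probes. The 47 were picked by their WT step, which is part of that difference. Tubb3 differed by -1.07 and Tuba1a by 2.17 in WT cells, Serpina1b by -0.84, Lcp1 by -0.91 and Msmo1 by -0.72. At an unadjusted p under 0.05 (limma) in both genotypes there were 153 genes, 150 of them with the same sign (54 higher, 96 lower). Taken singly, the KO step had 250 higher and 729 lower genes of 11883, and the WT step 518 and 814. Whether 153 is more than such counts would share by chance was not tested. Over all 11883 genes the KO and WT steps had r = 0.194, given as a description; the genotypes share the reference pool, and replicate 3 at 24 h lay in array set B in both. Without KO 24 h replicate 3, r was 0.0668. In a fit of array set C alone, r was 0.0609. There, 168 of the 205 genes at an unadjusted p under 0.05 in both genotypes had the same sign. Sets were assigned by the Cy5 array, so that fit kept WT 24 h replicate 2, whose Cy3 array lay in set B.

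No probe passed for a difference between the KO and WT steps (0 of 17618, 0%; lowest adjusted p 0.103; 958 at an unadjusted p under 0.05, limma). The lowest p-values for the difference among the named genes belonged to a KO step of 0.19 against a WT step of -0.90 for Gsta3 (difference 1.10, adjusted p = 0.103) and of -0.10 against 1.58 for Nox4, an NADPH oxidase (difference -1.69, adjusted p = 0.103), the latter chosen after its values were seen. Nox4 had no value in WT 24 h replicate 1, and replicates 2 and 3 read 2.06 and 1.94. The Cy3 array of replicate 2 and both arrays of replicate 3 lay in array set B, and all WT 12 h arrays in set C, so time and set cannot be told apart there. Unlike steps were also measured for Gins2 (1.30 against 0.07), Mt1 (-1.27 against 0.12), Hamp (-1.13 against 0.98), Ereg (-2.04 against 0.38) and Ctsd (-2.05 against -0.01), all with an adjusted p of 0.877 in the limma fit. Adh1 (1.00 against 0.06) also had an adjusted p of 0.877 for the difference. Strain differs with genotype in these groups, so the 2 cannot be told apart.

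**Figure D5:**
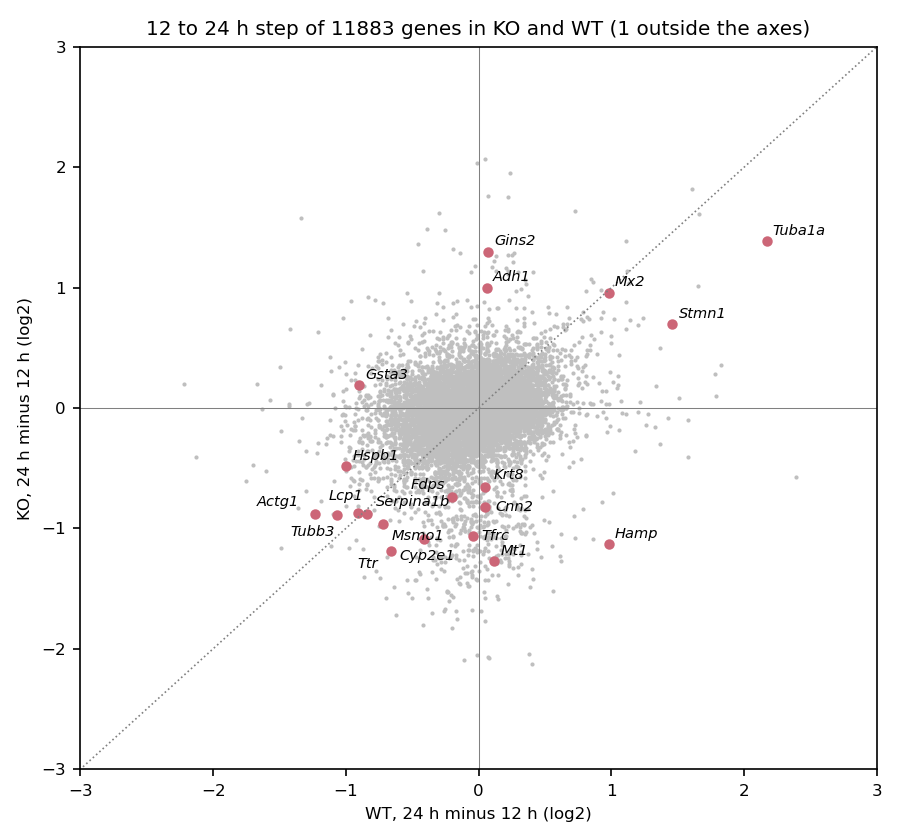
Log2 difference 24 h minus 12 h in KO cells (vertical axis) against that in WT cells (horizontal axis) for 11883 genes (grey), with 20 genes in red and the line of equal steps dotted; 1 gene lies outside the axes. Tubb3, Lcp1, Serpina1b and Mx2 lie near the dotted line, and Gins2, Adh1, Mt1 and Tfrc near a WT step of 0.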

How the data were processed

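Labelled RNA of each sample was hybridised against pooled WT hepatocyte RNA. The authors deposited normalized log2 ratios, 1 for each probe on each array. That the logarithm has base 2 was judged from the spread of the values, and how the authors normalized them is unknown here. Of the deposited values 6.01% were missing, and with no counts the number of arrays limits the precision. Arrays were median-centred and the Cy5 and Cy3 arrays of a replicate averaged. limma 3.58.1 in R 4.3.3 (statmod 1.5.0) fitted 10 groups of 30 replicates with weights by group (20 residual and 4.6 prior degrees of freedom), two-sided moderated tests and Benjamini-Hochberg adjustment over 17618 probes. In a list, 1 probe stands for a gene. Platform annotation, updated through the gene table, gave 16076 of 21997 probes 1 symbol, 288 several and 5633 none.

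The Cy5 and Cy3 steps correlated weakly over probes in KO cells (r = 0.0831). They also differed in size for named genes whose steps by dye are not given above. Among these were Pklr (-0.55 on Cy5 and -1.77 on Cy3 arrays), Tef (-0.26 and -1.31), Mt1 (-0.87 and -1.66) and Ttr (-0.82 and -1.56). Named genes are a panel of 12, some of the 2 members of lowest p in each list, and others chosen after their values were seen. Members of lowest p that the text leaves out include Got2, Slc25a13, Ier2, Elovl6 and Angptl4, with 24 h replicate 2 at -2.89 to -2.20. Dnajb9, with 2.82 in that replicate, was also left out. The comparison, lists and tests were chosen with earlier results of these data known. Data were simulated for KO 24 h against 12 h (17618 probes) with the spread fitted to each group. In them, 3 of 50 changes of 0.5, 33 of 50 of 1 and 50 of 50 of 2 (log2) were recovered. Of 17418 unchanged probes, 11 were called. The noise was normal with 1 weight for each group, so the wider spread of 24 h replicate 2 was not modelled. These counts therefore do not give the recovery in the measured data. Alternatives covered centring, weights, filters, dye, array set, replicate block and single replicates.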

Additional observations from a re-analysis of the deposited data

How the results depend on the processing

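Calls for KO 24 h against 12 h, 0 with all replicates (limma, adjusted p under 0.05; 1566 probes at an unadjusted p under 0.05), numbered 87 with arrays scaled to a common spread (43 of them Gapdh probes), 25 with all replicates weighted alike, 116 with a weight for each replicate, 27 with 1 orientation and 1 replicate a group enough, 20 with array set as a term and 2 with 3 dye profiles regressed out. They numbered 1 in array set C alone, 4 with probes of a gene averaged and 64 with that and replicate weights, and 1 to 133 when 1 KO replicate was left out. Array set C alone and both settings that average the probes of a gene were chosen after seeing the data. Array sets were assigned by the Cy5 array, so set C kept WT 24 h replicate 2, whose Cy3 array lay in set B. The weighted-alike and replicate-weighted fits shared 23 called probes. The remaining settings gave 0.

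WT calls, 47 with all replicates, numbered 299 weighted alike, 265 with replicate weights, 0 with only the groups compared, 9 on Cy3 arrays, 212 with dye profiles regressed out, 18 in array set C, 232 with genes averaged and replicate weights, and 0 to 240 with 1 replicate left out. Calls for the difference, 0 with all replicates, numbered 1 scaled, 7 weighted alike, 5 with replicate weights, 2 with 1 orientation, 1 with array set, 2 with dye profiles, 3 and 13 with genes averaged without and with replicate weights, and 0 to 5 with 1 replicate left out. The cause was not tested.

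Same-numbered KO replicates did not deviate together (r -0.112, -0.129 and -0.0912), and differently numbered ones gave r from -0.116 to 0.165. The Cy5 and Cy3 steps in KO cells themselves correlated only at r = 0.0831. With agreement this weak, the check cannot decide whether replicates of the same number share a mouse. With the replicate block, calls were 0 for KO, 60 for WT and 0 for the difference.

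Of 80 named genes, 73 kept their direction under every setting checked for them. Not checked were both settings that average the probes of a gene and the fits leaving out a WT replicate. Lcn2 (-0.46) was 0.03 on Cy5 arrays, Hgf -0.22 on Cy5 arrays and Nox4 0.22 on Cy3 arrays. Cyp7a1 was -0.05 scaled, -0.46 on Cy5 arrays, -0.18 with dye profiles and -0.02 to 0.37 with 1 replicate left out. Egr1 was -0.01 with replicate weights, -0.15 on Cy5 arrays, -0.12 with dye profiles and -0.05 to 0.25 with 1 replicate left out. Hbegf was -0.06 with replicate weights, -0.12 on Cy5 arrays and -0.08 to 0.21 with 1 left out, and Alb -0.13 to 0.00 with 1 left out. Scan signal over background was not analysed here.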
